A study of Mus musculus with 2 samples.

Results

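The genes described here encode the cytoplasmic translation initiation and elongation factors, their regulators and the aminoacyl-tRNA synthetases. They were chosen by symbol among mouse genes with a protein-coding transcript: symbols starting with Eif1 to Eif6, Eef1 or Eef2, and the synthetase symbols of the cytosol and of mitochondria. The rule used no measured value and gave 102 of 55536 annotated mouse genes, of which 43 are initiation factors, 9 elongation factors, 12 regulators, 21 cytosolic synthetases and 17 mitochondrial synthetases. The RNA came from hippocampus of male mice, 36 days old, of the strain B6CASTF1/J, an F1 hybrid of C57BL/6J and CAST/EiJ for which the labels give no engineered allele and no treatment; total RNA was sequenced. The labels give 1 group of 2 biological replicates, each a library from 300 ng of RNA with ERCC spike-ins. They name the tissue a layer of the hippocampus without saying which, and they give both libraries the same donor identifier with different biosamples. That the libraries come from separate animals therefore rests on the replicate numbers, and the spread between them may be partly technical.

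Translation starts when a small ribosomal subunit carrying initiator tRNA, delivered by eIF2, is brought to the capped end of an mRNA by the eIF4 and eIF3 factors and scans for a start codon. Elongation then repeats a cycle in which eEF1A delivers charged tRNA and eEF2 moves the ribosome by a codon, while the synthetases charge each tRNA with its amino acid. In neurons, protein synthesis is controlled largely at eIF2, eIF4E and eEF2, and changes at these steps accompany long-lasting synaptic plasticity in the hippocampus. Mitochondria have their own set of synthetases, encoded in the nucleus and made in the cytosol.

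The libraries held 28786216 expected counts in replicate 1 and 29755033 in replicate 2, and levels below are in TPM, a relative abundance corrected for transcript length. Of the markers of hippocampal tissue, 4 excitatory neuron genes summed to 2613 TPM in both libraries, and of 3 skeletal muscle genes 1 passed 1 TPM in both and Ckm was listed at 0 in both. The choroid plexus markers Ttr, Clic6, Aqp1 and Folr1 summed to 4.10 TPM in replicate 1 and 183.61 TPM in replicate 2, and all 4 were apart between the libraries. The dentate granule markers summed to 63.65 and 84.12 TPM in replicates 1 and 2, and the CA1 markers to 200.56 and 170.71 TPM. The part of these tissue differences in any value below was not tested, and in bulk tissue fewer cells of a type and less RNA per cell cannot be told apart.

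Nearly the whole translation machinery was detected. Of the 102 genes, 100 reached 1 TPM in both libraries, 98.0% against 57.8% of the 22028 protein-coding genes. At 10 TPM in both libraries there were 81, or 79.4%, against 35.2% of the protein-coding genes. The exceptions at 1 TPM were Eif4e1b, a cap-binding protein of the germ line, and Eef1akmt3, a lysine methyltransferase that acts on eEF1A. Eif4e1b had 1 count in replicate 1 and 0 in replicate 2, where a count of 0 still allows up to 3. Eef1akmt3 had 0.15 TPM in replicate 1 and 0.12 in replicate 2. Together the 102 genes held 1.36% and 1.38% of the TPM of protein-coding genes in replicates 1 and 2. The levels were very unequal: 3 genes stood among the 100 highest protein-coding genes in both libraries and 9 among the 500 highest, while the median gene of the set had 22.7 TPM in replicate 1 and 20.8 in replicate 2.

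Elongation factors had the highest median of the classes, 139 and 137 TPM in replicates 1 and 2, against 36.6 and 37.8 TPM for initiation factors. The 9 genes summed to 2453 and 2461 TPM in replicates 1 and 2, below the sum of the 43 initiation factors at 2644 and 2617 TPM. Eef1a1 (chr9:78478449-78489151, minus strand, mm10), the form of eEF1A found in most tissues, had 1177.65 TPM in replicate 1 and 1198.98 in replicate 2, a mean of 1188 ± 15.1 TPM (SD, n = 2). It ranked 16th and 13th among protein-coding genes in replicates 1 and 2. Eef1a2 (chr2:181147653-181157014, minus strand), the form of mature neurons and muscle, had 454.47 and 431.72 TPM in the same order, with ranks of 69 and 74. Eef1a2 thus made up 27.8% of the eEF1A pool in replicate 1 and 26.5% in replicate 2, a mean of 27.2% ± 0.969 (SD, n = 2). Eef2 (chr10:81176631-81182498, plus strand), the translocase, had 342.36 TPM in replicate 1 and 352.94 in replicate 2. The eEF1A genes together stood 4.77-fold above Eef2 in replicate 1 and 4.62-fold above it in replicate 2.

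The Eef1a1 and Eef1a2 proteins of 462 and 463 residues are 92.4% identical, but the coding sequences share 80.1% of aligned bases, with no identical run over 23 bases. The most divergent stretch, coding bases 643 to 702 of each GENCODE M21 transcript, is shown from 5′ to 3′ with the 22 bases that differ in capitals.
Eef1a1: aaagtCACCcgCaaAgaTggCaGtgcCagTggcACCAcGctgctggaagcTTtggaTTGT
Eef1a2: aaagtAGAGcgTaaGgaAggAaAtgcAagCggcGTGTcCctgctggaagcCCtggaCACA
Neither gene was marked as sharing reads with another.

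The subunits of eEF1B, the exchange complex that reloads eEF1A with GTP, lay well below eEF1A. Eef1b2, the alpha subunit of eEF1B, had 139.41 and 136.65 TPM in replicates 1 and 2, Eef1g had 98.27 and 100.53, and Eef1d, the delta subunit, had 52.23 and 52.75. The summed eEF1A level exceeded that of Eef1b2 by 11.7-fold in replicate 1 and 11.9-fold in replicate 2, and that of Eef1d by 31.2-fold and 30.9-fold in the same order. Eef1e1, which despite its name is a scaffold of the multisynthetase complex, had the lowest mean of the class, with 12.28 and 11.23 TPM. Eif5a2 was nearly equal, at 12.27 TPM in replicate 1 and 11.49 in replicate 2.

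Eif5a, which helps the ribosome through sequences that form peptide bonds poorly, had 163.64 TPM in replicate 1 and 164.63 in replicate 2. Its paralogue Eif5a2 had 12.27 and 11.49 TPM, 6.98% and 6.52% of the sum in replicates 1 and 2. Both carry the lysine that is turned into hypusine, an amino acid made only in eIF5A, at residue 50. The codon stands in capitals within coding bases 121 to 180 of each.
Eif5a: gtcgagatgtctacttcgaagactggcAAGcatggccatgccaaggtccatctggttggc
Eif5a2: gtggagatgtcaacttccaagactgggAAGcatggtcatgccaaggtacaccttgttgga
The pair is 83.0% identical in protein and 72.8% in aligned coding bases. The modifying enzymes, Dhps and Dohh, had 23.10 and 33.61 TPM in replicate 1, and 23.96 and 30.42 TPM in replicate 2.

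**Figure D1:**
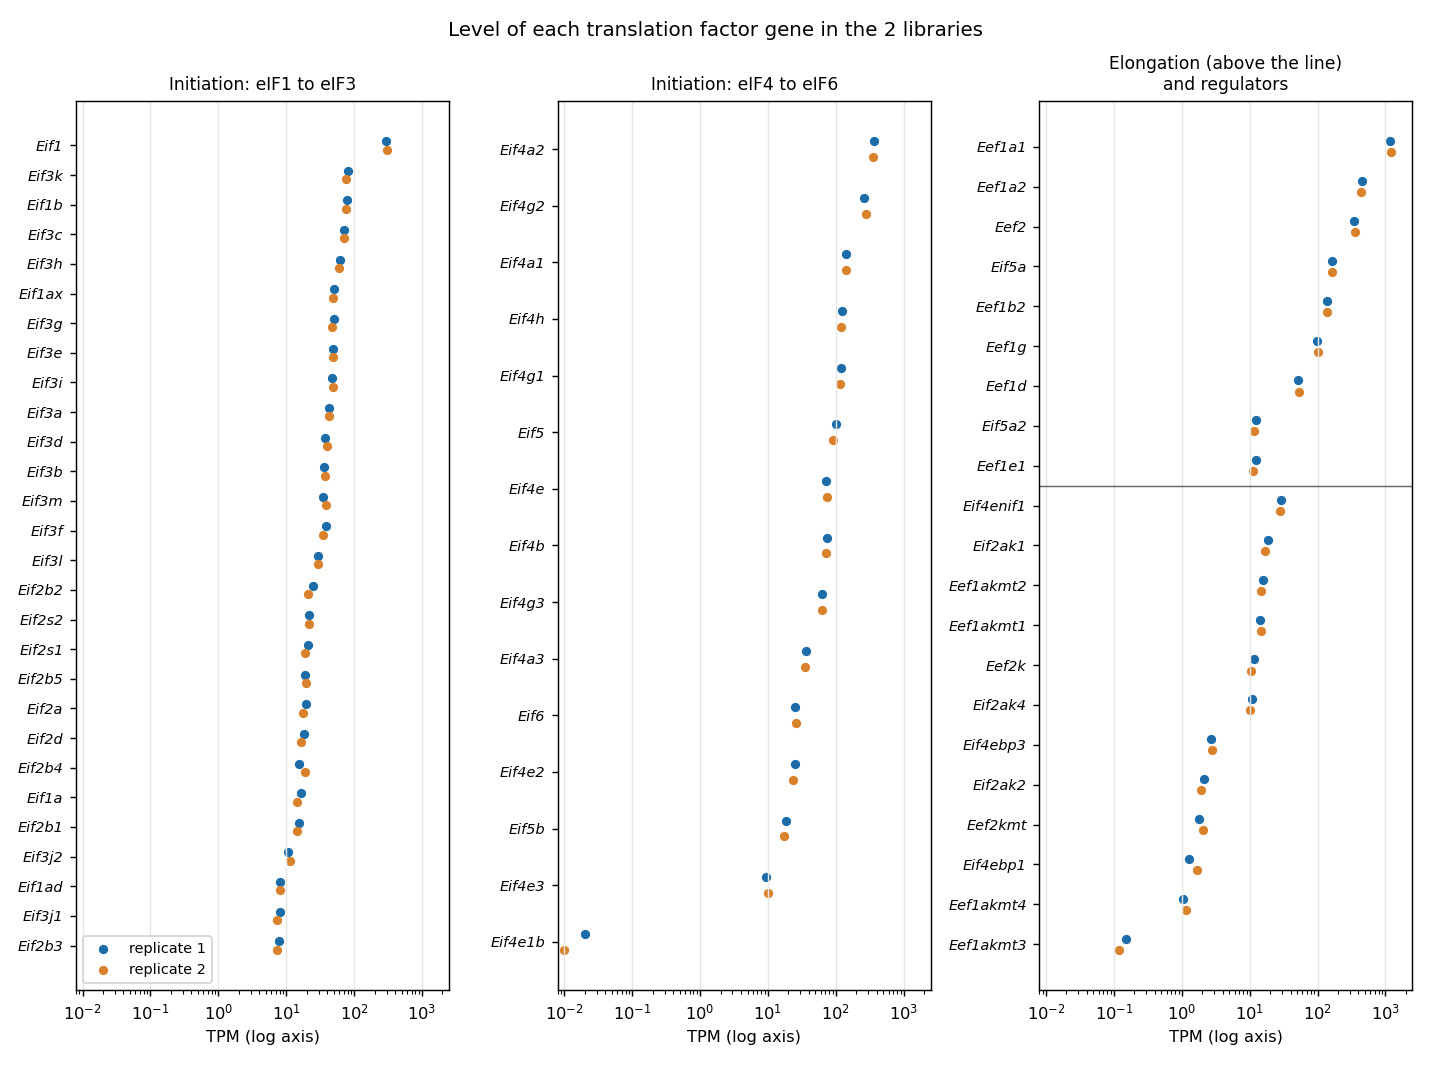
Level of each initiation factor, elongation factor and regulator in TPM on a log axis, with replicate 1 in blue above replicate 2 in orange and genes ordered by mean level within a panel. Values under 0.01 TPM are drawn at 0.01, which applies to Eif4e1b in replicate 2. The points of a gene nearly coincide, and levels run from Eef1a1 at 1177.65 and 1198.98 TPM down to Eif4e1b.

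Among initiation factors, the helicase and scaffold genes of the eIF4 group and the scanning factor Eif1 led. Eif4a2, an eIF4A helicase that unwinds mRNA ahead of the scanning ribosome, had 368.90 and 356.10 TPM in replicates 1 and 2. Eif1, which guards the choice of start codon, had 294.49 and 306.58 TPM. Eif4g2, a scaffold that lacks the region binding eIF4E, had 258.83 and 277.15 TPM and was above the classical scaffold Eif4g1, which had 120.77 and 115.69. An annotated snoRNA overlapping Eif4g2 exons on the same strand had 79.65 and 89.14 TPM. Its bearing on the Eif4g2 level was not tested. Eif4g3 reached 61.76 and 61.95 TPM, 33.8% and 34.9% of the sum of Eif4g1 and Eif4g3. The cap-binding Eif4e had 71.49 and 73.57 TPM, against 24.89 and 23.03 for Eif4e2 and 9.36 and 10.07 for Eif4e3. The helicase stimulators Eif4h and Eif4b had 123.81 and 73.78 TPM in replicate 1, and 120.42 and 70.71 TPM in replicate 2. Eif4a3, the related helicase of the exon junction complex, had 36.62 and 35.28 TPM.

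Eif4a2 exceeded Eif4a1 in both libraries, but how far depends on the table. In the gene table Eif4a1 had 143.38 and 139.12 TPM in replicates 1 and 2, so that Eif4a2 made up 72.0% and 71.9% of the pair. In the second transcript table Eif4a1 had 458 and 497 TPM and the Eif4a2 share was 59.8% and 57.3%. With protein-coding transcripts alone, the share was 60.2% and 61.5% in the first transcript table, but 73.0% and 74.7% in the second. Eif4a1 was marked as sharing reads, and the processed pseudogene Eif4a-ps4 on chromosome 1 was credited with 23.17 and 27.32 TPM. An annotated snoRNA inside an exon of Eif4a1 had 732.85 and 767.04 TPM of its own. One inside an Eif4a2 exon had 431.75 and 489.48 TPM. How these entries bear on the helicase levels was not tested. The proteins are 90.1% identical and the coding sequences 77.4%, with the start of the coding sequence the most divergent, shown here for bases 7 to 66 of Eif4a1 and 10 to 69 of Eif4a2 with 29 differing bases in capitals.
Eif4a1: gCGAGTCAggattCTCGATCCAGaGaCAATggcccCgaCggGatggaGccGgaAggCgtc
Eif4a2: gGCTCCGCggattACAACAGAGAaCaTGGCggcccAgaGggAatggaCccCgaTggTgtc

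Eif1b, a close paralogue of Eif1, had 77.73 TPM in replicate 1 and 76.63 in replicate 2, 20.9% and 20.0% of the Eif1 and Eif1b sum. Their proteins of 113 residues are 92.0% identical and their coding bases 81.1%. The stretch at coding bases 250 to 309 holds 17 differences, in capitals.
Eif1: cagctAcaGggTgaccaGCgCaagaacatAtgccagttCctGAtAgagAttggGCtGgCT
Eif1b: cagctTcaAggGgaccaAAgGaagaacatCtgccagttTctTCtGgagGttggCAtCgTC
With protein-coding transcripts alone the Eif1b share was higher, 37.8% and 37.3%, and 35.9% and 35.3% in the second table. Of the eIF1A genes, which act beside eIF1, Eif1ax had 50.37 and 48.68 TPM and Eif1a 16.53 and 14.41 TPM. Eif1ad, a related protein with an eIF1A domain, had 8.14 and 8.16 TPM.

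The eIF3 subunits, which form the large scaffold on the small ribosomal subunit, lay close together. The 14 genes summed to 596 and 590 TPM in replicates 1 and 2. Apart from the j subunit genes, the highest, Eif3k with 80.33 and 75.17 TPM, stood 2.74-fold above the lowest, Eif3l with 29.36 and 29.57 TPM, in replicate 1 and 2.54-fold above it in replicate 2. Between them came Eif3c at 71.25 and 70.10 TPM, Eif3h at 62.17 and 59.28, Eif3g at 49.76 and 47.56, Eif3e at 48.29 and 48.03, and Eif3i at 47.26 and 48.28. The ribosome-anchoring Eif3a had 42.41 and 42.43 TPM, Eif3f 38.48 and 34.33, Eif3d 36.66 and 40.38, Eif3b 36.45 and 37.84, and Eif3m 34.97 and 38.42. The loosely bound j subunit is encoded by near-identical genes, Eif3j2 with 10.62 and 11.28 TPM and Eif3j1 with 8.02 and 7.28 TPM. Both were marked as sharing reads, so the split between them is uncertain. In the second transcript table Eif3c was the highest subunit in place of Eif3k, and Eif3l stayed the lowest apart from j.

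The eIF2 and eIF2B genes measured were lower than most of eIF3. Eif2s1, the alpha subunit of eIF2 and the site of its stress phosphorylation, had 21.04 and 18.77 TPM in replicates 1 and 2, and Eif2s2, the beta subunit, had 21.53 and 21.86. The 5 subunits of eIF2B, which reloads eIF2 with GTP, ran from Eif2b2 with 24.81 and 20.71 TPM to Eif2b3 with 7.76 and 7.38 TPM. Eif2b5, the catalytic subunit, had 19.01 and 19.80 TPM, Eif2b1 15.55 and 14.26, and Eif2b4 15.24 and 18.57. The order within eIF2B changed in the second transcript table, where Eif2b1 was highest, and Eif2b3 was lowest in both tables. Eif2a and Eif2d, which can bring initiator tRNA to the ribosome without eIF2, had 19.32 and 17.57 TPM, and 17.95 and 16.29 TPM. At subunit joining, the GTPase activator Eif5 had 101.28 and 91.17 TPM, the GTPase Eif5b 18.64 and 17.41, and Eif6, which keeps free large subunits from joining, 24.93 and 26.04.

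Regulators were the lowest class apart from Eif4enif1, with a median of 6.71 and 6.44 TPM in replicates 1 and 2. Eif4enif1, which carries eIF4E into repressed mRNA particles, had 28.69 TPM in replicate 1 and 28.12 in replicate 2. The eIF2 kinases measured were present at different levels: Eif2ak1, which senses heme and mitochondrial stress, had 18.37 and 16.75 TPM, the amino acid sensor Eif2ak4 had 10.68 and 10.11, and Eif2ak2, which responds to double-stranded RNA, had 2.09 and 1.90. Eef2k, the kinase that slows elongation by phosphorylating eEF2, had 11.75 and 10.57 TPM. Of the eIF4E-binding proteins measured, Eif4ebp3 had 2.73 and 2.77 TPM and Eif4ebp1 1.28 and 1.66 TPM. Eif4ebp3 was marked as sharing reads and has 501 of its 744 exonic bases in common with AC115631.1 on the same strand, so its level is uncertain. The eEF1A methyltransferases Eef1akmt2 and Eef1akmt1 had 15.98 and 14.32 TPM in replicate 1, and 14.51 and 14.55 TPM in replicate 2. Eef2kmt, which methylates eEF2, had 1.77 and 2.07 TPM, with 472 of its 2678 exonic bases overlapped by Alg1 on the other strand.

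Cytosolic synthetases were higher than the mitochondrial ones. All 21 cytosolic genes passed 10 TPM in both libraries, with a median of 28.35 TPM in replicate 1 and 28.40 TPM in replicate 2. All 17 mitochondrial genes passed 1 TPM and 7 passed 10 TPM in both, with medians of 9.84 and 8.93 TPM. The ratio of the medians was 2.88 in replicate 1 and 3.18 in replicate 2, a mean of 3.03 ± 0.212 (SD, n = 2). The mean levels of the classes overlapped: 5 mitochondrial genes lay above the lowest cytosolic gene, Tarsl2, which had 14.36 and 13.39 TPM. Genes are not replicates, so no test was made between the classes.

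A cytosolic and a mitochondrial enzyme were paired for 16 amino acids, with the fused glutamate and proline enzyme Eprs used for both. For threonine the cytosolic gene was Tars without Tarsl2, and for phenylalanine it was Farsa, the catalytic subunit, without Farsb. The cytosolic gene was higher in both libraries in 14 pairs, and the median ratio was 2.96 in replicate 1 and 2.86 in replicate 2. Serine had the widest gap, with Sars (chr3:108424865-108445209, minus strand) at 80.87 and 75.32 TPM in replicates 1 and 2 and Sars2 at 4.88 and 4.60, a ratio of 16.6 and 16.4. The ratio was 11.7 and 10.1 for tryptophan, between Wars and Wars2, and 10.2 and 9.91 for proline, between Eprs and Pars2. Pars2 was the lowest synthetase at 2.73 and 2.82 TPM. Nars, for asparagine, was the highest synthetase at 83.57 and 77.85 TPM, against 8.58 and 6.22 for Nars2, a ratio of 9.74 and 12.5. Gars had 52.33 and 51.92 TPM and Kars 32.30 and 29.58, and these genes encode the cytosolic and the mitochondrial enzyme alike.

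Threonine was the pair in the other direction, with Tars alone as the cytosolic gene. Tars2 (chr3:95739976-95760206, minus strand) had 19.19 TPM in replicate 1 and 20.27 in replicate 2, against 15.69 and 17.54 for Tars. This order held in protein-coding transcripts, where Tars stood at 0.541 and 0.581 times Tars2, but not in the second transcript table, where Tars stood at 1.02 and 1.22 times Tars2. The other cytosolic threonine gene, Tarsl2, was left out of the pair. It had 14.36 and 13.39 TPM in replicates 1 and 2, so that Tars and Tarsl2 together exceeded Tars2 in gene TPM. For leucine the libraries disagreed in direction, with Lars at 18.47 and 16.19 TPM and Lars2 at 18.05 and 17.20 TPM. In the second transcript table Lars2 had 93.65 and 94.44 TPM, and Lars stood at 0.336 and 0.252 times Lars2. The pairs of phenylalanine and valine were also close in gene TPM, at 1.52 and 1.35 for Farsa over Fars2 and 1.46 and 1.08 for Vars over Vars2. In protein-coding transcripts the valine ratio was 4.52 and 4.65, and the phenylalanine ratio 1.15 and 0.975.

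**Figure D2:**
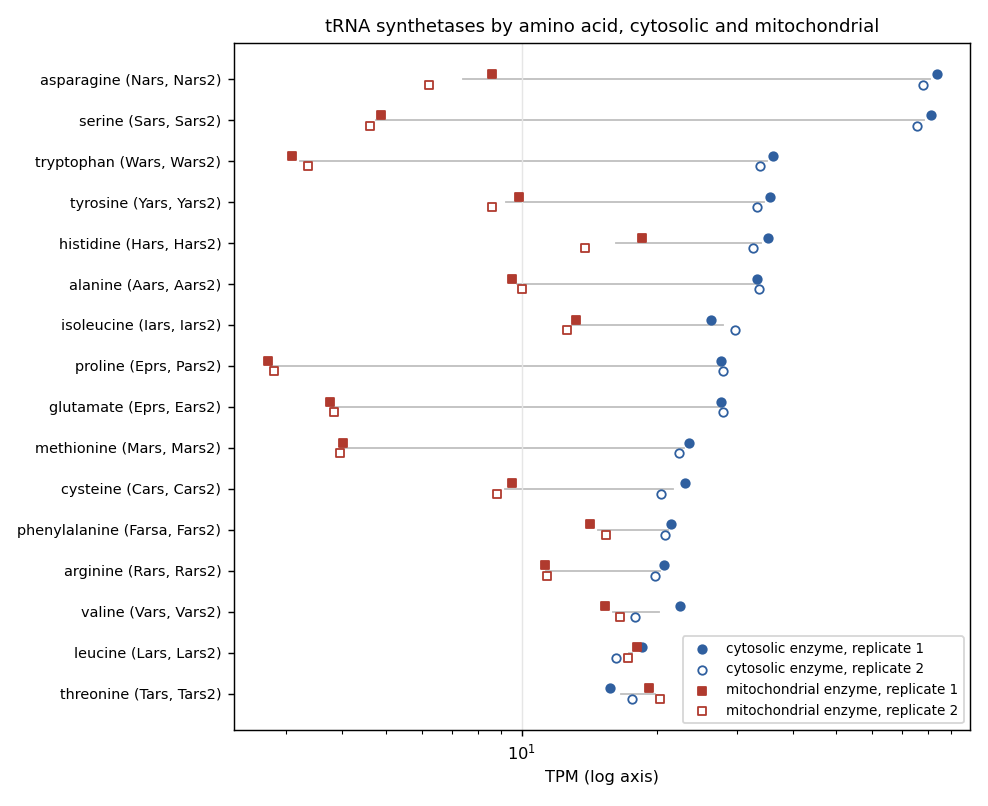
Level in TPM on a log axis of the cytosolic (blue circles) and mitochondrial (red squares) synthetase of each of 16 amino acids, filled for replicate 1 and open for replicate 2, with a grey line between the means. The gap is widest for serine, at ratios of 16.6 and 16.4, and the order is turned for threonine alone in both libraries. The threonine pair shows Tars without Tarsl2.

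In the multisynthetase complex, 8 cytosolic synthetases assemble on scaffold proteins. Their mean levels spanned 1.85-fold, from Lars with 18.47 and 16.19 TPM in replicates 1 and 2 to Qars with 29.11 and 35.10. Counted by protein-coding transcripts alone the order changed: Qars was the lowest of the 8, with 3.49 and 7.23 TPM, Kars was the highest with 31.30 and 29.17, and the range was 8.97-fold and 4.03-fold in replicates 1 and 2. Dars had 29.57 and 27.13 TPM, Eprs 27.77 and 27.95, Iars 26.32 and 29.79, Mars 23.53 and 22.31, and Rars 20.75 and 19.73. The scaffold genes Aimp1 and Aimp2 had 23.28 and 13.54 TPM in replicate 1, and 21.45 and 11.53 TPM in replicate 2. The 13 cytosolic synthetases outside the complex ranged more widely, from Tarsl2 up to Nars.

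Several synthetase genes are known targets of ATF4, the transcription factor that acts when eIF2 is phosphorylated and that binds composite C/EBP-ATF sites. The 8-letter core of such a site, TGATGNAA, was searched on both strands in RefSeq promoter windows (GRCm38.p6) of 250 bases before and 50 bases after each start. Of the 102 genes, 76 had a window. The core was found in 5 of 14 cytosolic synthetases, 35.7%, and in 0 of 14 mitochondrial synthetases. It was in 0 of 33 initiation factors, 0 of 7 elongation factors and 1 of 8 regulators. The background was 3.97% of all 32851 windows, or 4.51% of 27025 genes. The sites are printed 5′ to 3′ on the strand of the gene with the match in capitals. Most cytosolic synthetases with a window lacked the core. A match is not evidence of binding.
Aars, chr8:111033714-111033753, plus strand, starting 112 bases before the start: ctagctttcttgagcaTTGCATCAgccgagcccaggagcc
Gars, chr6:55037955-55037994, plus strand, 30 bases before: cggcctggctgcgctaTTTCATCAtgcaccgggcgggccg
Tars, chr15:11399659-11399689, minus strand, 15 bases before: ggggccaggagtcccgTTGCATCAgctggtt
Iars, chr13:49682129-49682149, plus strand, just after the start: tgtcagtaTTGCATCAcctcc
Yars, chr4:129189898-129189918, plus strand, just after the start: agctcagcTGATGCAAcccga
Eef2k, chr7:120851089-120851128, plus strand, 84 bases before: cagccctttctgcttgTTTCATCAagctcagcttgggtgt
Aars had a second match just after its start. The starts are those of RefSeq, and the Eef2k and Aars sites printed lie inside the genes as annotated by GENCODE. Those genes begin at chr7:120842831 for Eef2k and chr8:111033144 for Aars. The 5 synthetases with a match ranged in level from Gars, with 52.33 and 51.92 TPM in replicates 1 and 2, to Tars, with 15.69 and 17.54. Atf4 itself had 37.48 TPM in replicate 1 and 37.95 in replicate 2, and its targets Asns and Ddit3 had 39.68 and 11.54 TPM in replicate 1, and 38.96 and 16.61 TPM in replicate 2.

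The libraries were then compared gene by gene, replicate 1 over replicate 2, by an exact binomial test of rounded expected counts after TMM scaling. With 1 library a side it compares these libraries and not conditions. A gene was called apart under a Benjamini-Hochberg adjusted p of 0.05 and at least 1.5-fold. Of 18270 genes tested, 344 were apart, or 1.88%. Of the translation genes, 100 were tested and 0 were apart. At an unadjusted p under 0.05 there were 11, against 3983 of all genes tested. With no minimum fold, 6 of the translation genes passed the adjusted p, against 11.4% of all genes tested. The median size of the log2 ratio was 0.048 in the translation genes and 0.112 in all genes, and 98 of 100 lay within 1.2-fold, against 76.7% of all genes tested and 93.6% of those with a mean count of at least 200. Of the translation genes, 93 reached that count, so depth moves with this closeness.

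The 6 differences were small, and they fell in 3 elongation factors, 2 initiation factors and 1 regulator. Eef2 was 1.05-fold higher in replicate 2 (95% interval 1.03 to 1.07), with 20660 and 22385 expected counts in replicates 1 and 2 and an exact binomial test's adjusted p of 4.58e-06. Eef1a1 was 1.04-fold higher in replicate 2 (1.02 to 1.05) and Eif4g2 also 1.04-fold (1.02 to 1.06). Higher in replicate 1 were Eef2k at 1.22-fold (1.10 to 1.35), Eif4g3 at 1.05-fold (1.02 to 1.09) and Eef1a2 at 1.03-fold (1.01 to 1.05). Eef2k had 827 and 699 expected counts in replicates 1 and 2, and its adjusted p was 0.00219 by the exact binomial test. These intervals cover counting error only. The widest ratio, that of Eif4ebp1, was 1.32-fold higher in replicate 2 with an interval of 0.789 to 2.27 and rested on 27 and 37 counts.

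**Figure D3:**
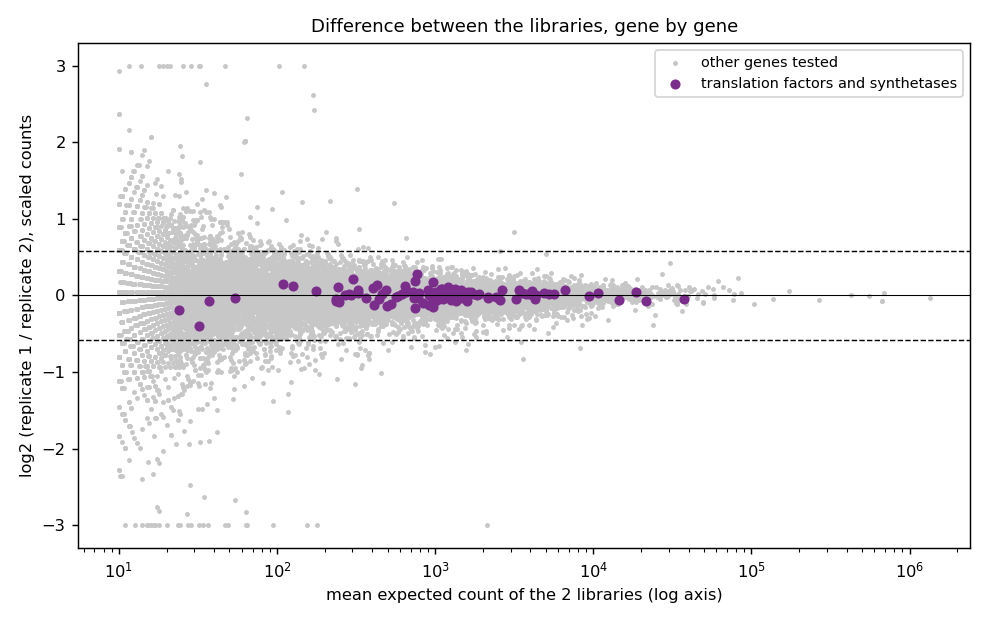
Log2 ratio of replicate 1 over replicate 2 in scaled expected counts against the mean expected count on a log axis, for the 18270 genes tested. The translation genes (purple) lie along 0 inside the dashed lines at 1.5-fold, and 98 of 100 are within 1.2-fold; grey points beyond a log2 ratio of 3 are drawn at 3.

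By TPM, 6 genes of at least 1 TPM were more than 1.2-fold apart, and the counts did not always follow. Vars had 22.42 and 17.85 TPM in replicates 1 and 2 but 1139 and 1190 expected counts, and Eif2b4 had 15.24 and 18.57 TPM but 493 and 482 counts. Hars2 had 18.49 and 13.83 TPM with 442 and 413 counts. Across the set, 20 genes had a TPM ratio and a count ratio of opposite sign. In Vars the share of TPM given to protein-coding transcripts was 50.8% and 66.9% in replicates 1 and 2, and in Hars2 24.2% and 38.5%.

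Of 40 tested genes in 6 lists of the same pathway, 0 were apart, against 1.88% of all genes tested, a share that gives under 1 call in 40. By size, 37 of the 40 lay within 1.2-fold, against 76.7% of all genes and 93.6% of those with a mean count of at least 200. With no minimum fold, 3 passed the adjusted p, against 11.4% of all genes tested. The 6 genes of release, recycling and rescue summed to 145 and 143 TPM in replicates 1 and 2, and the 9 mitochondrial translation factors to 121 and 115 TPM. The 8 factor modifiers summed to 110.4 and 110.7 TPM, and the 8 poly(A) binding and accessory genes to 366 and 365 TPM, in which Pabpc1 was 1.08-fold higher in replicate 2 (1.04 to 1.12, exact binomial adjusted p 0.000898). Among 8 outputs of the stress response, Ddit3, the transcription factor CHOP, had 187 and 283 expected counts and was 1.47-fold higher in replicate 2 (1.22 to 1.78, exact binomial adjusted p 0.000818). Ppp1r15b, a subunit of an eIF2 phosphatase, was 1.11-fold higher in replicate 2 (1.04 to 1.18, exact binomial adjusted p 0.0207).

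Not all of this RNA was assigned to transcripts annotated as coding. In the first transcript table, protein-coding transcripts held 82.7% of the translation genes' TPM in replicate 1 and the same in replicate 2, against 83.6% in all protein-coding genes. Transcripts annotated for nonsense-mediated decay held 4.86% and 4.47%, against 2.61% in all protein-coding genes in each library, retained-intron transcripts 7.20% and 7.26%, and processed transcripts 5.24% and 5.57%. In the second table the decay class held 4.28% and 3.67%, against 3.37% in both. Eif4a2 alone supplied 166.81 and 147.15 TPM of this class in the first table. Without Eif4a2, an alternative chosen after seeing the data, the decay share was 2.25% and 2.15% in the first table, under that of all protein-coding genes, and 3.98% and 3.79% in the second. Median coding shares differed by class, from 96.7% and 96.3% for elongation factors to 68.1% and 63.4% for mitochondrial synthetases.

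Of 81 genes with at least 10 TPM, 22 had under 70% of their TPM in protein-coding transcripts in both libraries, and 17 of these in both tables. The same count was not made over all protein-coding genes, so it cannot be read as particular to the translation genes. In Eif1, the 383-base processed transcript Eif1-202 held 53.5% of TPM in both libraries in the first table, and the protein-coding Eif1-201 held 41.7% in replicate 1 and 39.6% in replicate 2. In the second table the order was turned, with 32.7% and 35.7% for Eif1-202 and 51.8% and 54.3% for the protein-coding transcripts together. For Eif4a2 the tables differed as well. The decay transcript Eif4a2-210 held 44.2% and 38.7% in replicates 1 and 2 in the first table and 8.41% and 0.944% in the second, where the protein-coding Eif4a2-201 led with 39.7% and 43.6%. For Eef1b2, decay transcripts held 35.9% and 30.7% in the first table and 52.8% and 56.3% in the second.

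Among synthetases the coding share fell lowest in Qars, at 12.0% in replicate 1 and 20.6% in replicate 2, and at 17.9% and 28.1% in the second table. Retained-intron transcripts held 40.0% and 38.9% of Qars TPM in the first table. Vars2 had coding shares of 16.4% and 15.6%, with 71.2% and 75.8% in retained-intron transcripts. Coding shares were also under 50% in both libraries and both tables in Tars, Cars2 and Eif5b. Eif5b shares 1643 of its 9753 exonic bases with Rev1 on the opposite strand, which had 14.41 and 17.79 TPM, and whether reads were counted by strand is not given. Counting by coding transcripts alone moved the ratio of the class medians of cytosolic over mitochondrial synthetases to 5.35 and 5.41 in replicates 1 and 2. In the first table, no gene of at least 10 TPM had a second coding transcript that held 30% in both libraries, whereas 5 genes had one in the second table: Eef1a1, Eif2b1, Eif3c, Eif4e and Iars2. Eef1a1-208 held 43.1% and 42.8% of the Eef1a1 TPM there in replicates 1 and 2, against 7.13% and 5.64% in the first table. In Eef2k the leading coding transcript was not the same: Eef2k-204 held 37.2% and 9.22% in replicates 1 and 2 and Eef2k-203 8.61% and 35.8%, which was noticed after its values were seen and was not tested.

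**Figure D4:**
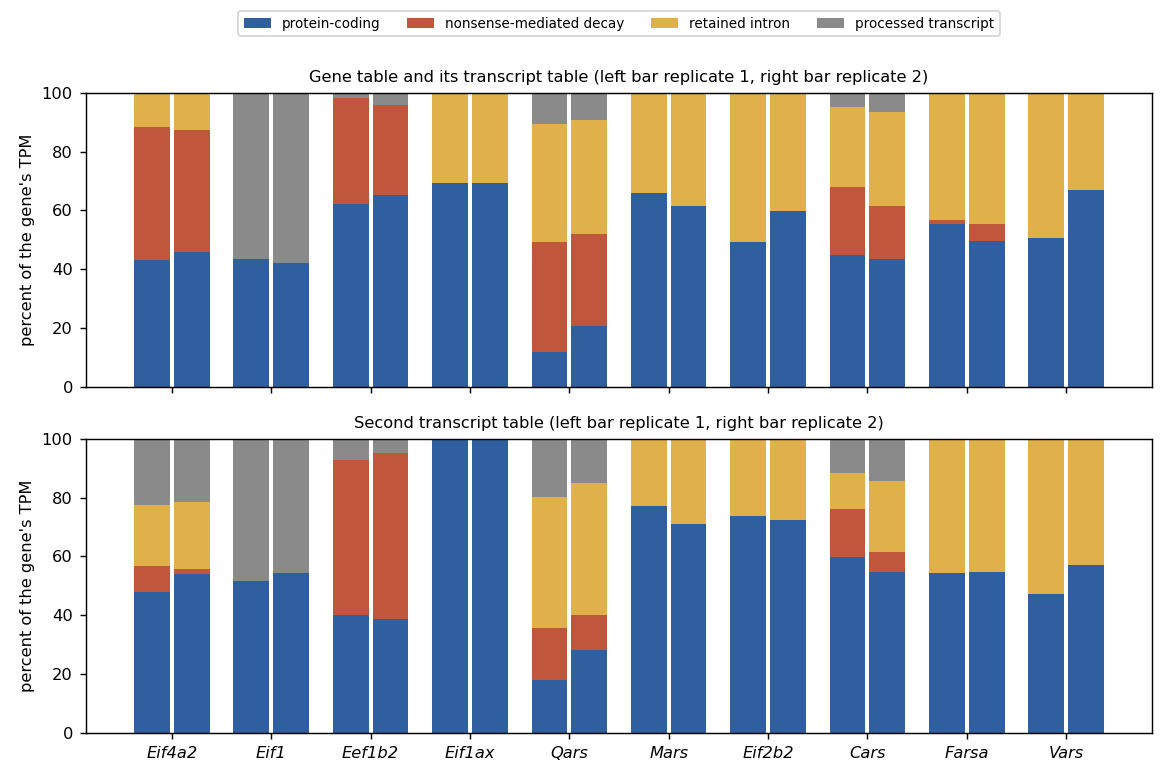
Share of TPM in each annotated transcript class, in percent, for the 10 highest genes with under 70% in protein-coding transcripts in both libraries; the left bar of a gene is replicate 1 and the right bar replicate 2, with the first transcript table above and the second below. The coding share of Vars is 50.8% and 66.9% in the first table, and the tables differ in Eif4a2, whose decay class holds 45.2% and 41.3% above and 8.97% and 1.78% below.

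Levels were last compared between the tables, which were made from the same reads. As deposited, 18 of 101 genes were at least 2-fold apart in both libraries, against 18.0% of protein-coding genes, and all 18 were lower in the gene table. Of the 2531 protein-coding genes apart, only 45 were higher in the gene table. Protein-coding genes held 445227 and 435237 TPM in the gene table and 778513 and 776536 TPM in the second, in replicates 1 and 2. After rescaling to equal protein-coding sums, 2 of 101 genes were apart, against 3.98%. These were Lars2, with 18.05 and 17.20 TPM in the gene table and 53.6 and 52.9 rescaled TPM in the second, and Eif4e1b, with 0.02 and 0.00 TPM in the gene table and 0.853 and 0.564 in the second. Eif4e1b passed the level limit through the second table alone, so that its difference was fixed by the limit and is no finding. In the second table, the retained-intron transcript Lars2-205 of 889 bases held 41.6% and 42.4% of the Lars2 TPM in replicates 1 and 2, against 0.41% and 0.00% in the first. The other genes apart as deposited were Eif4a1, Eif4g1, Eif4g2, Eif4e, Eif4e2, Eif3e, Eif3g, Eif5b, Eif2b1, Farsb, Cars, Rars, Rars2, Eef1akmt2, Eif2ak2 and Eif4ebp1. Eif4a1, with 143.38 and 139.12 TPM in the gene table and 262 and 279 rescaled TPM in the second, passed the limit in replicate 2 alone. Eef1akmt3, under 1 TPM in both tables, was not counted.

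**Figure D5:**
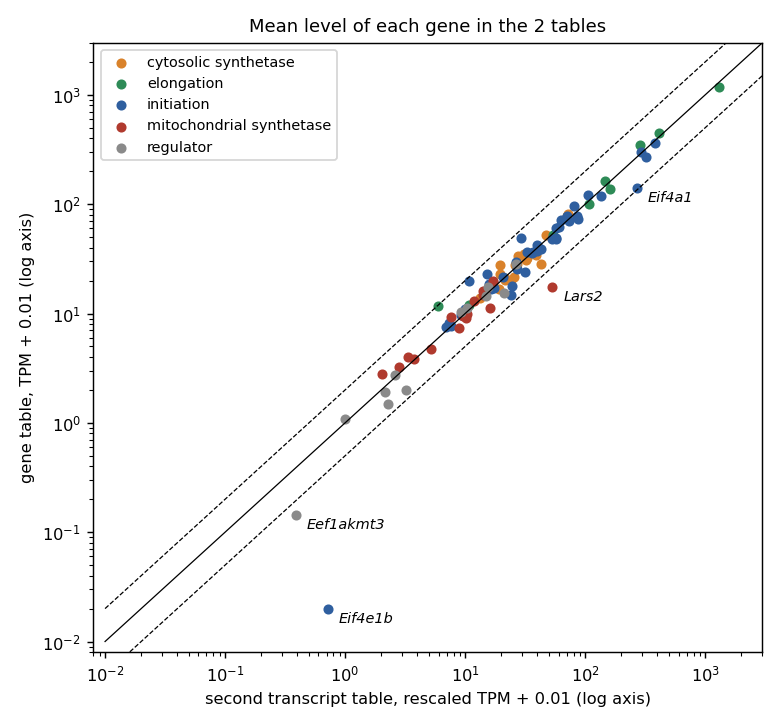
Mean TPM of each gene in the gene table against its mean rescaled TPM in the second transcript table, both with 0.01 added and on log axes, coloured by class. The solid line marks equal levels and the dashed lines a 2-fold difference; Lars2, Eif4e1b and Eef1akmt3 fall below the lower dashed line.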

How the data were processed

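Per the file headers, the authors' gene table holds, for each gene, an expected count and a TPM in columns that RSEM writes, and a first transcript table deposited by the authors adds the percent of each gene's TPM held by a transcript. A second deposited transcript table gives an estimated count and TPM in columns that kallisto writes. Per the deposited file descriptions the reference was mm10 with GENCODE M21. Which programs and versions were run, and whether counting used strand, is not given in the sources used here. The deposited TPM are scaled over all entries, ERCC included (0.421% and 0.408% of counts in replicates 1 and 2). The authors' other deposited column used, the posterior standard deviation of each count, marked genes that share reads: a count not whole by over 0.005 with a standard deviation of at least 1% of it.

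Rows other than mouse genes, 0.421% and 0.408% of counts, were left out of tests. Expected counts were rounded, scaled by TMM (edgeR 4.0.16, R 4.3.3) and compared by an exact two-sided binomial test, for genes whose expected counts averaged at least 10. Folds have 0.5 added to scaled counts, and intervals are exact 95% Clopper-Pearson. With 1 library a side, edgeR's quasi-likelihood test could not be fitted. The procedure was tested on simulated data with counting error alone, which cannot show how it behaves under variation between animals. Tables were compared on TPM with 0.01 added, among genes with a mean of at least 1 TPM in either. Coding sequences were aligned from GENCODE M21 and promoters matched to RefSeq by symbol and gene identifier. Genes described in full are the highest and lowest of each class, complexes, paralogue pairs, genes apart, genes under 1 TPM, and genes of low coding share. The members and lists were chosen with earlier results of these data known, and some genes of these families are not reported here. Alternatives were other scalings, count filters, fold limits and TPM thresholds, the second table, and each library alone.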

Additional observations from a re-analysis of the deposited data

How the results depend on the processing

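No paired analysis was possible because the labels give a single group. The count of genes at 1 TPM in both libraries, 100, ran from 90 at a 5 TPM threshold to 101 with the second table, and was 100 with either library alone. No translation gene was apart between the libraries under the other scalings (DESeq2 size factors, ERCC totals, total counts), with either count filter, with a fold limit of 2, with the second table's counts or without genes that share reads; with no fold limit the count was 6. The count apart between the tables was 18 of 101, and was 81 with a 1.5-fold limit, 2 after rescaling over protein-coding genes, and between 22 and 25 with a single library. The mean ratio of cytosolic over mitochondrial medians, 3.03, was 2.64 with the second table and 5.38 with protein-coding transcripts, and 2.88 to 3.18 with a single library. The mean Eef1a2 share, 27.2%, was 24.3% with the second table, and 26.5% to 27.8% with a single library. The cause of these changes was not tested. An n of 2 limits every SD, counting intervals leave out variation between animals, and genes on overlapping strands (32 of the set, 21 with a partner at 1 TPM or more) are uncertain.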
